A study of Mus musculus with 3 samples.

Results

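Cycling acinar-like tumour cells were the epithelial tumour cells that carried transcripts of pancreatic digestive enzymes and of mitotic genes together. They were selected on their measured RNA. UMIs (unique molecular identifiers, each standing for 1 captured RNA molecule) of 10 enzyme genes had to make up at least 0.6% and less than 5% of a cell's UMIs, UMIs of 10 cell cycle genes at least 0.3%, and UMIs of the ductal genes Tff1, Tff2 and Lgals4 less than 0.3%. Of 4488 cells in the series, 2148 also passed an upper limit of 5000 UMIs and a limit of 10% on ribosomal RNA locus genes, and 85 of those were cycling acinar-like cells. They came from all 3 tumours, with 23, 12 and 50 cells in tumours 1, 2 and 3.

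The 3 samples were mouse pancreatic tumours and form 1 group, with no untreated or normal pancreas beside them. Donor mice carried Msi2-Myc and the R26-LSL-tdTomato reporter, and tdTomato+ epithelial cells, which the labels equate with MYC-expressing cells, were sorted 5 weeks after tamoxifen. These cells were transplanted into the pancreas of NSG mice, an immunodeficient strain with no mature lymphocytes, and the tumours were taken at the end stage and sorted for EpCAM, an epithelial surface protein. All cells compared here therefore share the same donor genotype, treatment, host strain and sort, and only cells within the same tumours can be set against each other. The labels do not say whether the 3 tumours came from separate donors, so p-values speak for these 3 tumours only. They measure how differences between kinds of cells varied from tumour to tumour, since the fit held a term for each tumour. Where cycling ductal-like cells entered as 1 sum, that variation was not measured on their side.

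Acinar cells make and store the digestive enzymes of the pancreas, and in the healthy adult gland they rarely divide. A dividing cell copies its DNA in S phase, when replication factors and core histones are made, and then builds the spindle and segregates its chromosomes in G2 and mitosis, when a group of genes held back earlier in the cycle is transcribed. MYC is a transcription factor best known for raising ribosome production, nucleotide synthesis and entry into the cycle, and a sustained high level of it drives tumours in many tissues.

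The libraries held 9737397 to 16521484 UMIs, and the cycling acinar-like cells 44207, 15882 and 125794 UMIs in tumours 1, 2 and 3. Their median depth per cell was 1659, 1286.5 and 2521 UMIs, against 1671, 1213 and 2081 in acinar-like cells below the cycle limit. The medians were close in tumours 1 and 2, and in tumour 3 the cycling cells were deeper. The 3 libraries shared cell barcodes. Each of the 85 cells had 100 or more UMIs under the same barcode in another library, and a median of 78.0% of its barcode's UMIs (lowest 68.5%) lay in the library to which it was assigned. None of the 85 reached 90%, so no result can be given from cells free of this overlap, and its part in the results was not tested. RNA in nearly empty droplets, barcodes of 10 to 100 UMIs, held enzyme genes at 0.502% to 0.831% of UMIs and the cycle genes at 0.0436% to 0.0575%. The gate's lower limit of 0.6% on enzyme genes lies within the 0.502% to 0.831% of these droplets. Ductal-like cells below the cycle limit held enzyme genes at a summed 259, 261 and 616 UMIs per 1000000 UMIs (CPM). The cycling acinar-like cells held 21920, 23108 and 24103 CPM. Enzyme content set the gates, and none of those ductal-like cells exceeded 0.519%. The gap thus followed from the choice of cells. It does not measure what droplet RNA added to the cycling acinar-like cells, which was not tested.

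The enzyme genes that chose these cells were broadly present in them. Ctrb1, the chymotrypsinogen that was the most abundant of them, stood at 9863, 11522 and 10477 CPM in tumours 1, 2 and 3, a mean of 10621 ± 839 (SD, n = 3 tumours), and every one of the 85 cells had at least 1 of its UMIs. Clps, the colipase that pancreatic lipase needs, stood at 2782, 2708 and 2592 CPM. A cell held a median of 8 distinct enzyme genes of the 10. Trypsinogens such as Try4 and Try5 are near-identical copies whose counts may be split between them. Markers of most other cell types were at or near 0: no UMI was found for any of the 9 fibroblast, 6 erythroid, 8 endocrine, 5 mesothelial or 8 tuft cell genes, and the 11 myeloid genes summed to at most 7.95 CPM in any tumour. Of the 7 lymphoid genes only Trbc2, a T cell receptor constant segment, had UMIs (21 in 18 of the 85 cells), and it was found in 67 of 513 acinar-like cells below the cycle limit, in 0 of 43 cycling ductal-like cells and in 9 of 822 non-cycling ductal-like cells (1.09%). The lymphoid list thus stood at 90.5, 0 and 135 CPM in the cycling acinar-like cells and at 84.7, 0 and 79.6 CPM in acinar-like cells below the limit, above the 6.19, 0 and 9.11 CPM of non-cycling ductal-like cells in tumours 1 and 3. The 8 endothelial genes stood at 67.9, 0 and 15.9 CPM, against 51.9, 0 and 34.1 CPM in acinar-like cells below the limit and 6.19, 0 and 7.29 CPM in non-cycling ductal-like cells. The part of these genes in the results was not tested. The acinar and cycling parts of the label rest on the genes of the gate.

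All 10 cell cycle genes of the gate contributed. Ube2c, a ubiquitin-conjugating enzyme of the anaphase-promoting complex, led with 174 UMIs in 71 of the 85 cells, followed by Cks2, a small subunit of cyclin-dependent kinases, with 102 UMIs in 62 cells and Top2a, the topoisomerase that untangles chromosomes, with 93 UMIs in 48 cells. Rrm2, the ribonucleotide reductase subunit that supplies nucleotides in S phase, had 42 UMIs in 30 cells. Mki67, the antigen of the common Ki-67 proliferation stain, had 65 UMIs in 44 cells. A cell held a median of 5 distinct cycle genes (range 2 to 9), and 83 of the 85 held 3 or more. Without Ube2c 43 of the 85 cells would still have passed the cycle limit, whereas without Rrm2 74 would have.

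The promoters of these genes are shown because 9 of the 10 could be read from the RefSeq table of mouse build GRCm38.p6 and because mitotic genes are known to share the CHR element, whose core is TTTGAA, and CCAAT boxes. Below are the 250 bases before the transcription start of 5 mitotic genes and of the S phase gene Rrm2, each 5′ to 3′ on the gene's strand, with matches in capitals. Capitals mark TTTGAA, whose reverse complement is TTCAAA, and CCAAT, whose reverse complement is ATTGG. Overlapping matches run together. They lie at chr2:164769679-164769928 (plus strand) for Ube2c, chr13:51644982-51645231 (plus) for Cks2, chr11:99024190-99024439 (minus) for Top2a, chr10:69352913-69353162 (minus) for Cdk1, chr7:135716380-135716629 (minus) for Mki67 and chr12:24708004-24708253 (plus) for Rrm2.
Ube2c: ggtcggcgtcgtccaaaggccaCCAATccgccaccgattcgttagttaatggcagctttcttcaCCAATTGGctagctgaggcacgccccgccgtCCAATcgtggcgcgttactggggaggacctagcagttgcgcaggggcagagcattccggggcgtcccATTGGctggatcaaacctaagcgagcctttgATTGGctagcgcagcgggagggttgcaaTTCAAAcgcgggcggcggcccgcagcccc
Cks2: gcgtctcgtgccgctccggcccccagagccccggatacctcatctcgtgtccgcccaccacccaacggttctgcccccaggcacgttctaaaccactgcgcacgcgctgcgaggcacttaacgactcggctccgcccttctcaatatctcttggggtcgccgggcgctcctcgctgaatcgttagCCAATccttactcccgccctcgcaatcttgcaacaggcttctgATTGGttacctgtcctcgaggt
Top2a: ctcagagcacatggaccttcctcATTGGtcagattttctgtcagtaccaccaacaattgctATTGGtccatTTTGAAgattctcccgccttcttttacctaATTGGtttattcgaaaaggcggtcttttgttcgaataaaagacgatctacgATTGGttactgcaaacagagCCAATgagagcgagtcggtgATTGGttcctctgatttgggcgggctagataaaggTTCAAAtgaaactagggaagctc
Cdk1: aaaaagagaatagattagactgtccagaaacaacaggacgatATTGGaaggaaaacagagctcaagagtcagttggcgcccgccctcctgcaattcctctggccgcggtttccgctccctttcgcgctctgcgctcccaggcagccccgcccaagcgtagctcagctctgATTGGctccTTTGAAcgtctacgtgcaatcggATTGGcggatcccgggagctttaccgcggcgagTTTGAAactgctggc
Mki67: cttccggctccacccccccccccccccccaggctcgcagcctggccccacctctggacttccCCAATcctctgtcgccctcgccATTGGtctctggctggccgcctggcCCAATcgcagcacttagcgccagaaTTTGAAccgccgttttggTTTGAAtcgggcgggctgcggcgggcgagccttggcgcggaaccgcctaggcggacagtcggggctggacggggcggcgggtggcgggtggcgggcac
Rrm2: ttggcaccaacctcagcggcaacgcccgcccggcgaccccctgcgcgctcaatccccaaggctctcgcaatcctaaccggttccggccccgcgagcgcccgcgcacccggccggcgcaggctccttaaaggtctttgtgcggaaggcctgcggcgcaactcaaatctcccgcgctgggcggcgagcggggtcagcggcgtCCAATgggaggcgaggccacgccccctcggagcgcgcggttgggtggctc
Ube2c held 1 TTTGAA match, Top2a, Cdk1 and Mki67 held 2 each, and Cks2 and Rrm2 held none in the stretch shown. The mitotic genes printed are the 4 that hold TTTGAA there and Cks2, the second by UMIs, and Birc5, Cenpf and Nusap1, not printed, also held none. Counted on both strands over the RefSeq window of 300 bases, TTTGAA was found in 5 of the 9 gate promoters and CCAAT in 7, against 17.9% and 37.4% of all 32851 promoters of that length. Of 55 promoters of a wider G2/M list, 65.5% held TTTGAA, of 43 promoters of an S phase list 14.0%, and of the 8 enzyme gene promoters none. The sequence GGCGGGAA (reverse TTCCCGCC), a form of the E2F site of S phase genes, was found in 18.6% of the S phase promoters, in 1.82% of the G2/M promoters and in none of the 9 gate promoters, against 2.19% of all promoters. A match describes the letters in the window only.

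Within each tumour the levels of the gate's cycle genes followed from the choice of cells and are given as a description. Ube2c stood at 882, 1133 and 930 CPM in the cycling acinar-like cells of tumours 1, 2 and 3 and at 221, 276 and 261 CPM in acinar-like cells below the cycle limit. Cdk1, the kinase that starts mitosis, stood at 362, 315 and 429 CPM against 76.5, 78.8 and 105 CPM. For both genes every cycling sum lay above every sum below the limit. Mki67 and Cenpf were the exceptions in tumour 2, both on few UMIs. Mki67 stood at 126 CPM (2 UMIs) in the 12 cycling cells against 513 CPM (13 UMIs) in the 20 cells below the limit. Tumours 1 and 3 had 407 and 358 CPM of Mki67 against 164 and 141. Cenpf had 1 UMI against 4 in tumour 2.

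**Figure D1:**
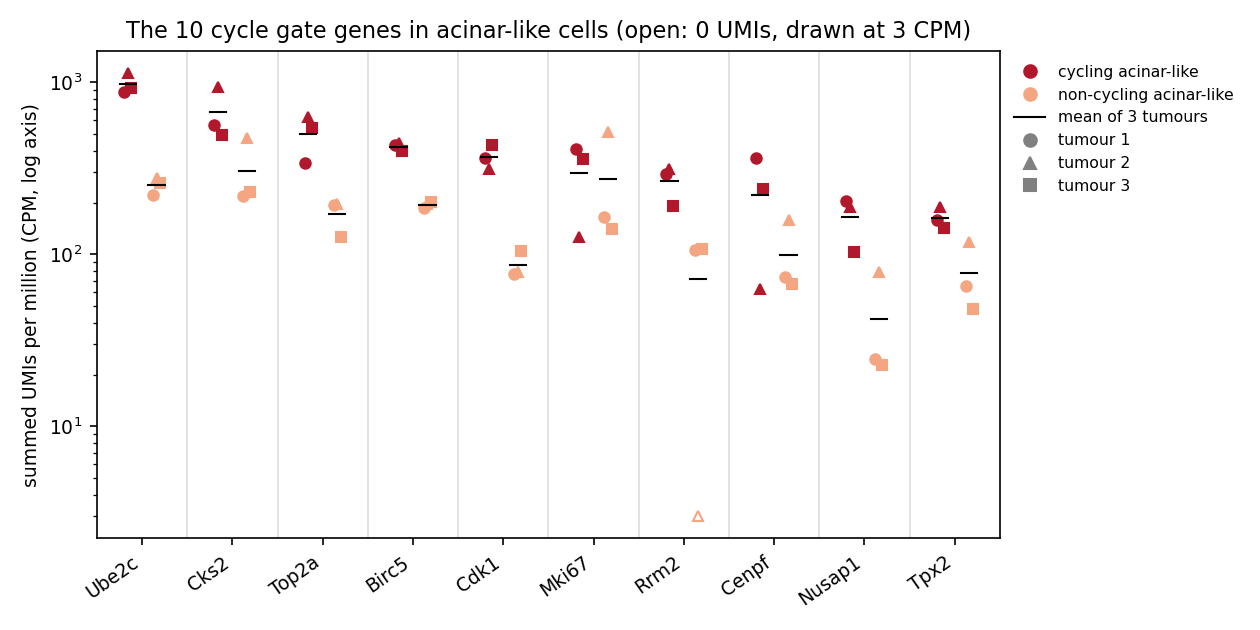
Summed level in CPM (log axis) of the 10 cycle genes that chose the cells, in cycling and non-cycling acinar-like cells, 1 point per tumour and a line at the mean of 3 tumours, open points marking 0 UMIs. Ube2c sits at 882 to 1133 in cycling cells and at 221 to 276 in the others. Mki67 and Cenpf in tumour 2 are lower in the cycling cells, on 2 against 13 and 1 against 4 UMIs.

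The cycling acinar-like cells were the upper end of a continuous range. The cycle genes made up 0.301% of UMIs in the cell just inside the limit and 0.298% in the acinar-like cell just outside it, and 61 cells lay below and 34 above the limit within a margin of 20% of it. With every cell thinned to 1000 UMIs, the 598 acinar-like cells held a mean of 1.62 UMIs of the 10 cycle genes and 71.2% held at least 1, against 0.703 UMIs and 37.1% of the 865 ductal-like cells. The thinned gate named 135 cells, of which 57 were among the 85. Which cells of this range count as cycling therefore depends on depth and on the limit, and the cells called non-cycling here are those below it, not cells without cycle transcripts.

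**Figure D2:**
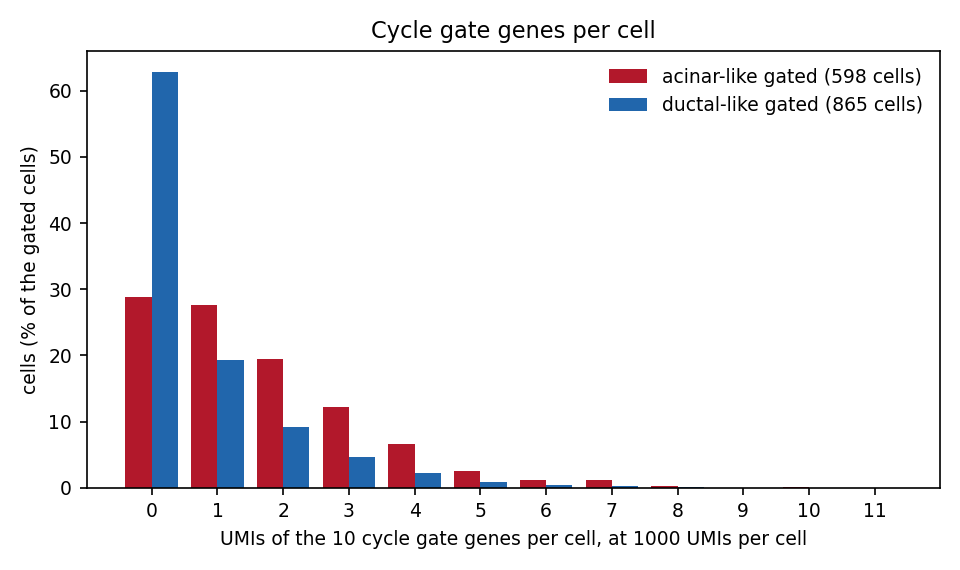
Share of cells (percent) by the number of UMIs of the 10 cycle genes per cell, with every cell thinned to 1000 UMIs, for 598 acinar-like and 865 ductal-like cells. The acinar-like distribution falls off without a gap, and 28.8% of its cells against 62.9% of ductal-like cells hold 0.

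The cycling acinar-like cells made up 2.40% of the filtered cells of tumour 1 (exact Clopper-Pearson 95% interval 1.53 to 3.58), 6.19% of tumour 2 (3.24 to 10.6) and 5.02% of tumour 3 (3.74 to 6.56), a mean of 4.53% ± 1.94 (SD, n = 3). The intervals cover counting error only. As a share of all acinar-like cells they were 10.7%, 37.5% and 14.2%, where tumour 2 rests on 12 of 32 cells. Among ductal-like cells within the same depth limits the share above the cycle limit was 6.30%, 4.59% and 2.86%. This was lower than the share among the gated acinar-like cells in each of the 3 tumours. No test between tumours was made, since they form 1 group.

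Cycling acinar-like cells differed in which cycle transcripts were detected in them. Whether they differed beyond counting error was not tested. At 1000 UMIs per cell, 58 of the 85 (68.2%) held a UMI of a mitotic regulator outside the gate, from a list of 16 such as Ccnb1, Cdc20 and Plk1 that was chosen after values of these data were seen. In acinar-like cells below the limit the count was 272 of 513 (53.0%), in cycling ductal-like cells 34 of 43 (79.1%) and in non-cycling ductal-like cells 194 of 822 (23.6%). At all UMIs, 72 of the 85 cycling acinar-like cells (84.7%) held such a UMI. With all UMIs kept, 66 of the 85 held both a mitotic UMI and 3 or more UMIs of the S phase list. Another 11 held only the S phase UMIs, 6 only the mitotic ones, and 2 neither. At 1000 UMIs per cell these counts were 39, 19, 19 and 8, so the split depended on depth. By histone content, 23 of the cells held 0 or 1 replication-dependent histone UMIs at that depth, 34 held 2 to 5 and 28 held 6 or more. The mitotic regulators summed to 1334, 1680 and 1035 CPM in those 3 classes and the enzyme genes to 23514, 23616 and 23290 CPM, so enzyme content differed little across them.

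Outside the gate, mitotic and histone genes stood higher in acinar-like cells above the cycle limit than below it in each tumour, and the summed S phase genes did not. The 50 S phase genes summed to 3529, 3526 and 3291 CPM in the cycling acinar-like cells of tumours 1, 2 and 3 and to 3493, 3785 and 3006 CPM in those below the limit, a ratio of 1.01 ± 0.08 (SD, n = 3). The 16 mitotic regulators summed to 1380, 1826 and 1375 CPM against 953, 1104 and 915 CPM, a ratio of 1.54 ± 0.11, with no overlap between the groups. The ratio for the 62 G2/M genes was 1.23 ± 0.08. Replication-dependent histones stood at 5158, 3841 and 3856 CPM against 4672, 3312 and 2706 CPM, a ratio of 1.23 ± 0.17 that was above 1 in each tumour (1.10, 1.16 and 1.42). Histone messages mostly lack a poly(A) tail, which the 3′ method relies on, and many histone genes are near-identical copies. The acinar-like cells below the limit in turn stood 2.55 ± 0.06 times above non-cycling ductal-like cells for the S phase list and 2.07 ± 0.22 times for the G2/M list.

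**Figure D3:**
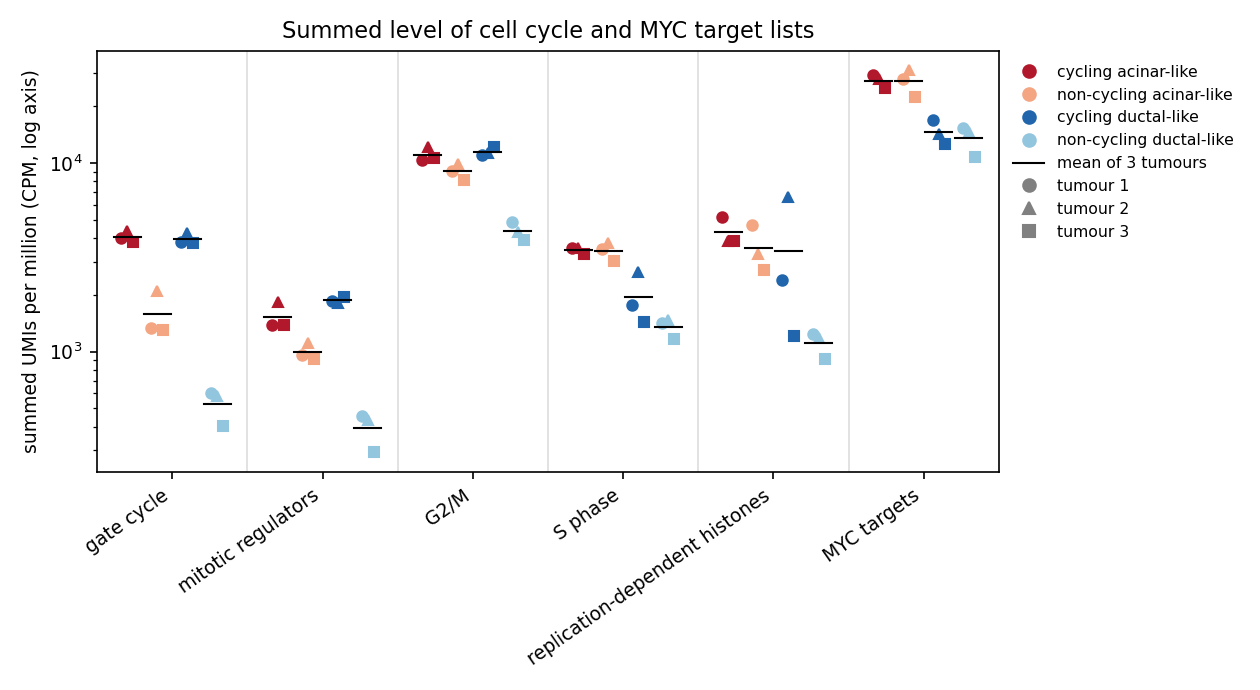
Summed level in CPM (log axis) of 6 gene lists in 4 kinds of gated cells, 1 point per tumour and a line at the mean of 3 tumours. S phase genes and MYC targets lie at like levels in both acinar-like groups and lower in both ductal-like groups, while G2/M genes are at 10406 to 12215 in cycling acinar-like and 11004 to 12173 in cycling ductal-like cells.

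Gene by gene, cycling acinar-like cells were compared with acinar-like cells below the cycle limit in the same tumours, to ask what else differed at the same enzyme level. S100a6, Clu, Anxa1, Lcn2, Ly6a, Akr1b8 and Ccnb1ip1 were lower in the cycling cells and Chil4 was higher. These 8 of 4148 genes (0.193%) passed edgeR's quasi-likelihood test with Benjamini-Hochberg adjustment at 0.05, 1 higher (0.0241% of genes) and 7 lower (0.169%). The unadjusted p was under 0.05 for 197 genes, and DESeq2 called 2. Without tumour 3 no gene passed (70 with an unadjusted p under 0.05), and without tumour 1 the count was 5, all of them among the 8.

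S100a6, a calcium-binding protein of injured and duct-like epithelium, stood at 136, 315 and 151 CPM in the cycling acinar-like cells of tumours 1, 2 and 3 and at 598, 197 and 825 CPM in those below the limit. It was lower in 2 of the 3 tumours. In tumour 2 each of the 2 groups held 5 UMIs, so 315 against 197 CPM shows no clear direction there. The log2 difference was -2.14 ± 0.30 (SE; adjusted p = 5.4e-09, edgeR) and -1.56 without tumour 3 (adjusted p = 0.162). Clu, the secreted chaperone clusterin that is raised in injured acinar tissue, stood at 158, 252 and 390 CPM against 404, 315 and 1067 CPM, lower in all 3 tumours (log2 difference -1.44 ± 0.27, adjusted p = 1.05e-04, edgeR). Without tumour 3 it was -1.20 with an adjusted p of 0.792 from edgeR. DESeq2 also called S100a6 and Clu, and no others.

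Lcn2, the iron-binding lipocalin of the acute inflammatory response, stood at 113, 126 and 183 CPM against 175, 315 and 487 CPM, lower in all 3 tumours (log2 difference -1.46 ± 0.32, adjusted p = 0.00576, edgeR; adjusted p = 0.995 without tumour 3). Anxa1, a membrane-binding annexin, had no UMI in the 85 cells and 80 UMIs in the 513 below the limit, so it was at least 4.53-fold lower if 3 counts are taken as the floor over all 85 cells (adjusted p = 0.00349, edgeR; 0.792 without tumour 3). Ly6a, the surface protein also called Sca-1, had 2 UMIs in 1 cycling cell against 104 UMIs in 57 cells, a ratio of 8.82 (exact 95% interval 2.38 to 73.8, counting error only). Akr1b8, an aldo-keto reductase, had 1 UMI against 76, a ratio of 12.9 (2.25 to 516). The calls of both were lost without tumour 1 (adjusted p = 0.062 and 0.207, edgeR) and without tumour 3 (0.995 for each).

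Chil4 and Ccnb1ip1 rested on single cells. Chil4, a chitinase-like secreted protein, had 0, 0 and 278 CPM in the cycling cells against 10.9, 0 and 22.7 CPM (log2 difference 3.13 ± 0.49, adjusted p = 2.57e-07, edgeR), but 34 of its 35 UMIs lay in 1 cell of tumour 3, without which that tumour had 8.17 CPM. Ccnb1ip1, a cyclin B1 interacting protein, had 4 UMIs against 142, of which 72 lay in 1 cell below the limit. With those 2 cells left out, an alternative chosen after seeing the data, Chil4 was at a log2 difference of -1.85 and Ccnb1ip1 at -1.64 (adjusted p = 0.968 for each, edgeR), and 6 genes were called.

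**Figure D4:**
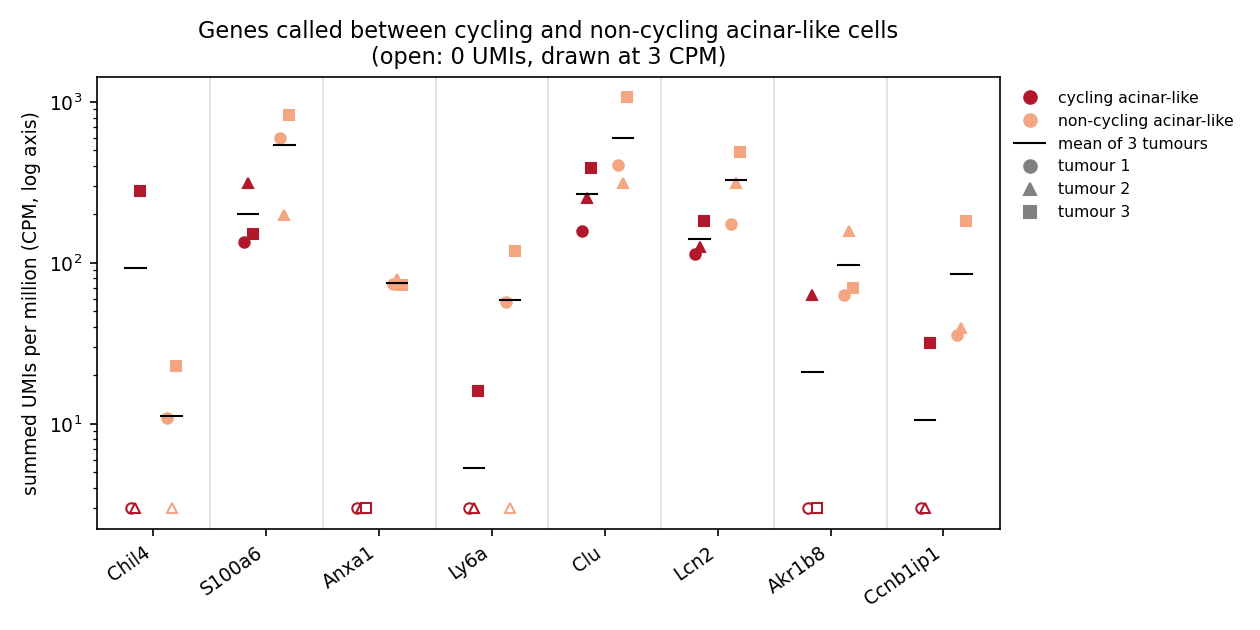
Level in CPM (log axis) of the 8 called genes in cycling and non-cycling acinar-like cells, 1 point per tumour, a line at the mean of 3 tumours, open points marking 0 UMIs. Clu and Lcn2 are lower in the cycling cells of every tumour, S100a6 in 2 of 3, and Chil4 is at 0 in the cycling cells of tumours 1 and 2.

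S100a6, Ly6a and Anxa1 belonged to a list of 18 injury surface genes. The list summed to 905, 944 and 859 CPM in cycling acinar-like cells and to 1551, 1498 and 2458 CPM in those below the limit, with no overlap. Of 12 members tested, S100a6, Ly6a and Anxa1 were lower, 9 did not pass, and the median log2 difference was -1.43 (-0.86 with the 3 members at 0 UMIs set at their bound), beside -0.11 for all genes tested. S100a10 and S100a11 stood at log2 differences of -1.33 and -0.80 and did not pass (adjusted p = 0.14 and 0.652, edgeR). Part of the list lay in a subset of cells: 10 of 192, 1 of 20 and 43 of 301 acinar-like cells below the limit in tumours 1, 2 and 3 held 0.5% or more of their UMIs in it, 54 in all with 50.6% of the list's UMIs. None of the 23, 12 and 50 cycling cells did, which allows shares of up to 13.0%, 25% and 6%. The share below the limit lay above that bound in tumour 3 (14.3%). It lay under the bound in tumours 1 and 2 (5.21% and 5%), where no difference was detectable with so few cycling cells. That cutoff was chosen after the values were seen. At 1000 UMIs per cell the counts were 57 of 513 and 1 of 85. In those 54 cells the cycle genes had a median of 0.0366% of UMIs and the enzyme genes 1.84%, against 0.132% and 2.34% in the rest.

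No other list had a member called between the 2 acinar-like groups. Cenpe, a kinesin that aligns chromosomes at the spindle, had the largest difference of the mitotic genes outside the gate, at 136, 126 and 143 CPM in the cycling cells against 54.6, 39.4 and 44.0 CPM, with no overlap. Its log2 difference was 1.48 ± 0.44, higher in 3 of 3 tumours, and it did not pass (adjusted p = 0.216, edgeR). Of 48 G2/M genes tested 40 lay above 0 with a median log2 difference of 0.29, and of 15 mitotic regulators 14 lay above 0 with a median of 0.50. The 32 S phase genes had a median of -0.01 and the 33 MYC targets one of -0.05, so they lay near or slightly above the median of all genes. G2/M and S phase genes belong to the programme the cells were selected on, and their values are a description.

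No cell cycle brake or immediate early gene passed the test. The 20 brakes summed to 1.02, 0.983 and 0.644 times the level below the limit in tumours 1, 2 and 3. The 18 immediate early genes summed to 0.884, 1.44 and 0.821 times, so neither summed list moved the same way in every tumour. The tumour 2 ratios rest on 8 against 13 UMIs for the brakes and 28 against 31 for the immediate early genes. The 8 brakes tested had a median log2 difference of -0.43, and Cdkn1a, the p21 inhibitor of cyclin-dependent kinases, stood at 158, 63.0 and 63.6 CPM in the cycling acinar-like cells against 145, 158 and 153 CPM (log2 difference -0.91, adjusted p = 0.993, edgeR). The 13 immediate early genes tested had a median of -0.29 and the 79 cytosolic ribosomal protein genes one of -0.17, beside -0.11 for all genes. Every tested member of these 3 lists lay below 0, as did 2494 of all 4148 genes. Of 26 ductal and foregut genes 24 lay below 0, with a median of -0.79, or -0.48 over 19 of them with genes at 0 UMIs set at their bound. None of these was called.

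No acinar gene passed the test between acinar-like cells above and below the cycle limit. Reg1 is a secreted protein of the regenerating islet-derived family that acinar cells make in large amounts after damage. With ribosomal protein and mitochondrial genes set aside, it was the most abundant gene of the cycling acinar-like cells, at 18210, 12782 and 19556 CPM. It stood at 14093, 13049 and 18927 CPM in those below the limit (log2 difference 0.03 ± 0.16). The groups overlapped. Rbpjl, a subunit of the PTF1 complex that drives enzyme genes, stood at 249, 189 and 191 CPM against 199, 0 and 146 CPM (0.33 ± 0.31). The enzyme genes outside the gate had a ratio of 1.02 ± 0.15 between the 2 groups, and none of the 8 tested passed. Klk1, a kallikrein of the secretory granule, stood at 430, 693 and 390 CPM against 440, 828 and 287 CPM.

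Cycling acinar-like cells were then set against cycling ductal-like cells, to ask how dividing cells of 2 kinds in the same tumours differed. The cycling acinar-like cells had more of the S phase gene Dut and of MYC targets such as Odc1, Srm, Nolc1 and Ddx21, and they had the acinar secretory programme that the gate selected. The cycling ductal-like cells had more injury surface and foregut genes. The test called 236 of 4148 genes (5.69%) by edgeR's quasi-likelihood test with Benjamini-Hochberg adjustment, 57 higher in the cycling acinar-like cells (1.37%) and 179 lower (4.32%). Only tumour 1 had the 10 cycling ductal-like cells required for a sum, 30 of them. Tumours 2 and 3 had 5 and 8, so this side of the test is 1 sum that is assumed to vary like the others. The cycling ductal-like cells of tumours 2 and 3 held 6072 and 17416 UMIs in all, so 1 UMI there stood for 165 and 57.4 CPM. Directions given below for single genes in these 2 tumours can rest on very few UMIs. Without tumour 3 the count was 133. With sums of 5 cells or more, an alternative chosen after seeing the data in which all 3 tumours enter on both sides, 268 of 1953 genes were called, 113 higher and 155 lower, and 181 of them were among the 236. Without the home-library filter 135 were higher and 203 lower. The comparison shares the cycling acinar-like sums with the one above. Counts of called list members below are to be read beside the shares over all genes given here. A count of 1 or 2 called members is not read as a result about its list.

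The S phase genes stood 1.88 ± 0.49 times higher in cycling acinar-like than in cycling ductal-like cells (SD, n = 3), at 3529, 3526 and 3291 CPM against 1763, 2635 and 1436 CPM. The groups did not overlap, although the cycle genes of the gate stood at a ratio of 1.02 ± 0.02. Of 32 S phase genes tested, 2 were higher and 30 did not pass, with a median log2 difference of 0.80 (0.62 over 26 genes without those at 0 UMIs in tumour 1), beside 0.07 for all genes tested (0.0067 with bounds). Dut, which keeps uracil out of DNA, stood at 475, 504 and 405 CPM against 89.0, 165 and 172 CPM, higher in all 3 tumours (log2 difference 2.26 ± 0.62, adjusted p = 0.00741, edgeR). Nasp, a histone chaperone, stood at 294, 189 and 453 CPM against 89.0, 165 and 459 CPM, higher in 2 of 3 tumours (2.19 ± 0.62, adjusted p = 0.0121, edgeR). With 3 cycling ductal-like sums Dut was called (2.02 ± 0.48, adjusted p = 0.00123, edgeR) and Nasp was not (1.26 ± 0.46, adjusted p = 0.0567, edgeR). In the cycling ductal-like cells of tumour 2 the 165 CPM of each gene is 1 UMI. The 172 CPM of Dut in tumour 3 is 3 UMIs, so these directions rest on very few counts.

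Mitotic genes showed no such order. The 62 G2/M genes had a ratio of 0.964 ± 0.103 and the 16 mitotic regulators stood at 1380, 1826 and 1375 CPM against 1852, 1812 and 1952 CPM. The mitotic sums of the 2 kinds of cells overlapped. Of 48 G2/M genes tested, 1 was lower in the cycling acinar-like cells and none was higher, with a median log2 difference of -0.12. Kif23, a kinesin of the central spindle at cell division, was the 1 called, at 45.2, 0 and 63.6 CPM against 321, 0 and 172 CPM (log2 difference -2.57 ± 0.66, adjusted p = 0.00382, edgeR), lower in 2 of 3 tumours and at 0 on both sides in tumour 2. Kif23 was too low to be tested with 3 cycling ductal-like sums. Replication-dependent histones were at 5158, 3841 and 3856 CPM against 2404, 6588 and 1206 CPM, with tumour 2 the other way, and 1 of 18 tested, Hist1h3e, was higher.

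MYC targets stood 1.89 ± 0.14 times higher in cycling acinar-like than in cycling ductal-like cells, at 29294, 28082 and 24946 CPM against 16970, 14328 and 12575 CPM. The groups did not overlap. Of 33 tested, 5 were higher and none lower, all 33 lay above 0, and the median log2 difference was 0.95. Odc1, the rate-limiting enzyme of polyamine synthesis, stood at 633, 567 and 572 CPM against 196, 329 and 402 CPM, higher in 3 of 3 tumours (1.66 ± 0.48, adjusted p = 0.0144, edgeR). Srm, the spermidine synthase that acts after it, stood at 588, 567 and 374 CPM against 160, 165 and 172 CPM (1.65 ± 0.52, adjusted p = 0.0319, edgeR). Nolc1 and Ddx21, both of the nucleolus, had log2 differences of 1.60 ± 0.43 and 1.11 ± 0.36 (adjusted p = 0.00669 and 0.0397, edgeR), and Ppan, a ribosome biogenesis factor, had 31 UMIs against 1. With 3 cycling ductal-like sums all 5 were called (largest adjusted p = 0.00839, for Nolc1, edgeR). In the cycling ductal-like cells the Srm values of tumours 2 and 3 are 1 and 3 UMIs. The 329 CPM of Odc1 in tumour 2 is 2 UMIs, so these directions rest on very few counts. The same list differed little with the cycle limit, with a ratio of 1.02 ± 0.11 among acinar-like cells and of 1.09 ± 0.095 among ductal-like cells.

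Myc itself was too sparse to compare. It had 22.6, 0 and 47.7 CPM in the cycling acinar-like cells, 7 UMIs in 7 cells, and 60.1, 118 and 42.6 CPM in acinar-like cells below the limit (log2 difference -0.54 ± 0.64, adjusted p = 0.993, edgeR). Cycling ductal-like cells had 17.8, 0 and 0 CPM. The sources used here do not say whether reads of the Myc transgene count towards this gene. Msi2, the other gene in the name of the model, had 12 UMIs in 10 of the 85 cells.

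The acinar side of the contrast is a description, since enzyme and ductal genes set the gates. Acinar-like cells below the cycle limit shared the Reg genes, at a summed ratio of 1.12 ± 0.20 (SD, n = 3) of cycling cells over them. Reg2 stood at 3461, 4030 and 6018 CPM in cycling acinar-like and at 0, 0 and 172 CPM in cycling ductal-like cells, at least 64.8-fold higher in tumour 1 against a floor of 3 counts in that sum. Reg3a stood at 927, 882 and 1741 CPM against 17.8, 0 and 0 CPM, with a ratio in tumour 1 of 52.1 (exact 95% interval 8.84 to 2107, counting error only). Reg1 and Reg3b were higher by log2 differences of 1.95 ± 0.27 and 1.68 ± 0.30. Reg3g, an antibacterial lectin of the same family, stood apart from them at 995, 567 and 525 CPM against 570, 823 and 861 CPM, higher in 1 tumour and lower in 2 (-0.11 ± 0.38). Of the 5 Reg genes tested 4 were called higher.

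Beyond enzymes and Reg genes, Gc, the vitamin D binding protein, had 85 UMIs in 46 of the 85 cycling acinar-like cells and none in the 43 cycling ductal-like cells, at least 5.50-fold higher in tumour 1. Rbpjl had 38 UMIs against none, and Cpb1, a carboxypeptidase that was not in the gate, 32 against none. Chst2 and Erp27 followed with 24 and 31 UMIs against none, and Erp27 is a protein of the endoplasmic reticulum found mainly in the pancreas. Psmb10, a subunit of the immunoproteasome, stood at 452, 567 and 342 CPM against 17.8, 0 and 57.4 CPM, higher in all 3 tumours, with a ratio in tumour 1 of 25.4 (4.06 to 1053). Sel1l, which retrieves misfolded proteins from the endoplasmic reticulum, stood at 339, 315 and 207 CPM against 17.8, 0 and 0 CPM. None of these genes was called between the 2 acinar-like groups. Gc, Cpb1, Chst2 and Erp27 had means of 344, 212, 148 and 208 CPM in the cycling acinar-like cells. In acinar-like cells below the limit the means were 347, 164, 128 and 135 CPM, so these genes were not particular to cycling cells.

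On the ductal side, S100a6 was at 9010, 7905 and 10737 CPM in cycling ductal-like cells, against 136, 315 and 151 CPM in the cycling acinar-like cells (log2 difference -6.01 ± 0.32). Of the 12 injury surface genes tested 9 were lower in the cycling acinar-like cells and 3 did not pass, with a median of -3.25 (-2.59 over 11 genes with bounds), and Ccnd1, the cyclin D1 of the G1 phase, was among the 3 at 136, 189 and 167 CPM against 142, 165 and 0 CPM. Of 26 ductal and foregut genes 19 were lower, among them the keratin Krt19 at 724, 819 and 715 CPM against 2600, 3458 and 3847 CPM. Lypd8, Clca1 and Ctse, genes of gut and stomach epithelium, had no UMI in the 85 cells and 54, 25 and 26 UMIs in the 43, at least 11.5-fold, 5.51-fold and 4.72-fold lower in tumour 1.

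**Figure D5:**
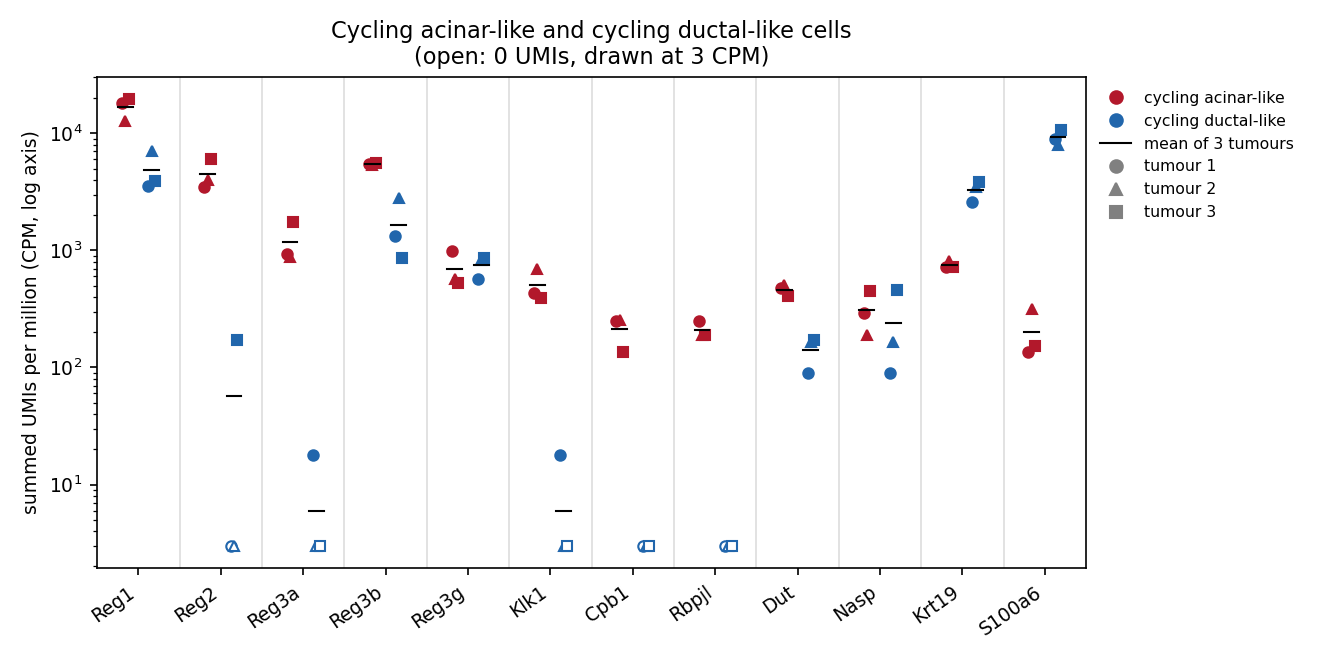
Level in CPM (log axis) of 12 genes in cycling acinar-like and cycling ductal-like cells, 1 point per tumour, a line at the mean of 3 tumours, open points marking 0 UMIs. Tumours 2 and 3 have 5 and 8 cycling ductal-like cells and were not fitted on that side. Dut is higher in the acinar-like cells of every tumour, with 1 and 3 UMIs in the ductal-like cells of tumours 2 and 3. Reg3g shows no such order.

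Whether the difference across the cycle limit was itself particular to acinar-like cells was tested as an interaction. The cycling ductal-like side again is 1 sum. S100a6 was the only gene called of 4148 (0.0241%), at a log2 difference of -1.87 ± 0.41 between the 2 cycling effects (adjusted p = 0.0174, edgeR). In ductal-like cells S100a6 stood at 9010, 7905 and 10737 CPM above the cycle limit and 10035, 8527 and 10484 CPM below it, whereas in acinar-like cells it was lower above the limit in 2 of 3 tumours. The call was lost without tumour 3 (-1.28, adjusted p = 0.939, edgeR) and in 5 other alternatives of 13, and it held with 3 cycling ductal-like sums (-1.60, adjusted p = 0.031, edgeR). The interaction had an unadjusted p under 0.05 for 194 genes. The 15 mitotic regulators had a median interaction of -1.51 and the 48 G2/M genes one of -1.14, beside -0.0025 for all genes, with none called. Above the cycle limit their summed levels were 1.54 ± 0.11 and 1.23 ± 0.08 times those below it in acinar-like cells, and in ductal-like cells 4.99 ± 1.48 and 2.66 ± 0.42 times. The cycle genes of the gate themselves stood 2.67 ± 0.51 times higher above the limit in acinar-like cells and 7.70 ± 1.53 times in ductal-like cells, so the limit set the 2 ductal-like groups further apart, and the negative medians cannot be told apart from this difference in the gate.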

How the data were processed

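Cells of 3 mouse pancreatic tumours were profiled with the 10x 3′ method. The deposited files hold raw UMI counts per gene for every barcode, made with Cell Ranger 3.0.2 per the file headers. The submitters' processing notes name Cell Ranger 3, Seurat 3.1 and mm10, whereas for the gene annotation a name was not given in the sources used here. The report starts from these counts.

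Cells were barcodes with at least 1000 UMIs, at least 500 genes, at most 20% mitochondrial UMIs and at least 60% of the barcode's UMIs in 1 library. The gated cells also had under 5000 UMIs and under 10% from ribosomal RNA locus genes. Non-cycling cells had the same enzyme or ductal content and under 0.3% of cycle genes. The members and gene lists were chosen with earlier results of these data known. Scrublet (scanpy 1.11.5, Python 3.11.15) marked 7 of 4488 cells as doublets, none of them among the 85, and so few calls say little about doublets. No doublets were removed.

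Counts were summed per tumour and gate where at least 10 cells were found, giving 10 sums, and tested with edgeR 4.0.16 (R 4.3.3) by quasi-likelihood. The fit held a term for each tumour, a block that pairs the gates because all cells of 1 tumour grew in 1 mouse. The default filter on low counts left 4148 genes of 31053, TMM scaling was used, and the common biological coefficient of variation was 0.104 with 4 residual degrees of freedom. P-values were adjusted by Benjamini-Hochberg over all genes tested, at 0.05. On counts simulated for the comparison of the 2 acinar-like groups (3878 genes tested), edgeR recovered 88 of 95 genes changed 2-fold and 97 of 97 changed 4-fold. All changed genes had 200 CPM or more, and 6 of 191 calls were false. Anxa1, Ly6a, Ccnb1ip1, Akr1b8, Chil4 and Lcn2 had means under 200 CPM in the cycling acinar-like cells, so the recovery does not cover them. Counts were drawn from edgeR's own fitted spread, so UMIs concentrated in single cells were not simulated. The tests against ductal-like cells were not simulated. CPM are UMIs per 1000000 UMIs of a sum and are not divided by gene length, since the method counts 3′ ends. Named genes were those of the gate, for each list the 4 of highest level in the cycling acinar-like cells and the 2 with the smallest p in each direction, and for each test the 12 called genes with the largest log2 difference in each direction among those with 50 CPM or more in a gate and the same direction in every tumour fitted. Odc1, Srm and Plk1 fall outside this rule and were chosen after their values were seen. Alternatives were DESeq2 1.42.0, no filter, no block, only the gates compared, other gates and depth limits, thinned cells, other cell numbers per sum and each tumour left out.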

Additional observations from a re-analysis of the deposited data

Results flagged for a closer look

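In the test of the difference between the 2 cycling effects, S100a6 had a log2 value of -1.87 ± 0.41 (adjusted p = 0.0174, edgeR), and its call depends on the processing. It stood at 136, 315 and 151 CPM in cycling acinar-like cells of tumours 1, 2 and 3, at 598, 197 and 825 CPM in acinar-like cells below the cycle limit, and at 9010, 7905 and 10737 CPM against 10035, 8527 and 10484 CPM in the 2 ductal-like groups. In tumour 2 each acinar-like group held 5 UMIs, so 315 against 197 CPM shows no clear direction there. The cycling ductal-like side entered from tumour 1 alone. The call was lost in 6 of 13 alternatives, by edgeR without tumour 3 (adjusted p = 0.939), with no replicate block (1), with no filter on low counts (1), with thinned cells (0.818) and without the highest doublet scores (0.232), and by DESeq2 (0.999). Over the 13 the log2 value ran from -2.18 to -1.28.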

How the results depend on the processing

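With the tumour block, 8 genes were called between cycling and non-cycling acinar-like cells, 236 between cycling acinar-like and cycling ductal-like cells, and 1 in the interaction. With no replicate block these counts were 1, 163 and 0. DESeq2 called 2, 139 and 0, no filter on low counts gave 5, 116 and 0, and cells thinned to 1000 UMIs gave 5, 105 and 0. Cells of 1500 UMIs or more gave 16 in the first comparison and 2 in the interaction, no home-library filter 13 and 3, and leaving out the highest doublet scores 5 and 0. In the first comparison only the gates compared gave 3, sums of 50 cells or more 13, and sums of 5 cells or more, chosen after seeing the data, 4. Leaving out each tumour in turn gave 0 to 11, 133 to 214 and 0 to 1, with a lone sum assumed to vary like the others, and nothing could be fitted for the last 2 comparisons without tumour 1. Without the 2 cells holding most Chil4 and most Ccnb1ip1 the interaction count was 2 and Chil4 turned to -1.85. Tumour 3 held 50 of the 85 cells, and no gene of the first comparison passed without it. The mean share of cycling acinar-like cells, 4.53%, was 1.03% with a cycle limit of 0.5% and 7.34% with the gate on thinned cells. The mean share with a mitotic regulator UMI, 69.4%, was 84.8% at all UMIs. At the limit of 0.5% it was 54.4%, over only 3, 5 and 2 cells in tumours 1, 2 and 3, too few to show a change. The 0.5% cycle limit and the 90% home-library limit left too few cells to test. The cause of these changes was not tested, and depth limits the sparse genes to a few UMIs each.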

Other observations

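Genes of protein folding in the endoplasmic reticulum serve the secretory pathway of acinar cells. Their summed level in cycling acinar-like cells was 1.12 ± 0.053 times that of acinar-like cells below the cycle limit and 1.34 ± 0.137 times that of cycling ductal-like cells (SD, n = 3 tumours), above 1 in each tumour for both. Of 23 tested, none was called in the first comparison, and 1 was higher and 1 lower in the second. Genes of serine synthesis and the Atf4 response, which supply amino acids under stress, stood at ratios of 1.00 ± 0.26 and 1.88 ± 0.35, and none of the 14 tested was called in either comparison.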
